A study of Mus musculus with 13 samples.

Results

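Old haematopoietic stem cells (HSCs) of high mitochondrial membrane potential (MMP) were compared with old HSCs of low MMP by RNA sequencing. The libraries were chosen by their titles, 3 labelled Old MMP high and 3 labelled Old MMP low, which are 6 of the 13 libraries of the series. The series sets MMP high against MMP low HSCs at 2 ages, and its other 7 libraries, 3 Young MMP low and 4 Young MMP high, entered the fit and the last comparison. All mice were untreated and of the strain labelled C57BL/6 Jrj. Old mice were over 18 months of age and young mice 8 to 12 weeks. Per the labels' protocols, marrow from crushed bones was enriched for Kit, and live cells of the gate Lin- Ckit+ Sca1+ CD48- CD150+ were sorted for RNA, with libraries made by a Nextera XT kit. Neither the dye nor the gates for MMP could be read from the labels. The labels do not say whether replicates are separate animals, whether animals were pooled, or their sex, so p-values measure only the spread between these samples, which may be technical.

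HSCs sit at the top of blood formation and are mostly out of the cell cycle in the adult. The membrane potential is the charge difference that the respiratory chain builds across the inner mitochondrial membrane, and it drives ATP synthesis and protein import. Cells leaving quiescence are known to switch on the licensing of replication origins, DNA synthesis and then mitosis, while adhesion, membrane and regulatory genes characteristic of stem cells are usually highest in quiescent HSCs. HSC ageing is known for a bias towards platelets and myeloid cells and for a raised set of surface and stress genes.

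Total counts of the 6 libraries ran from 8537834 to 10574730. The first component of log2 CPM (counts per 1000000 counts of a library, scaled between libraries) held 37.5% of the variance of the old libraries and had all 3 MMP low libraries on one side and all 3 MMP high libraries on the other. Genes that define HSCs were expressed in all 6: Kit lay between 502 and 816 CPM, Mecom between 61.3 and 150, Hlf between 51.3 and 253 and Fgd5 between 16.3 and 55.5. The gate's negative marker Cd48 lay between 1.25 and 17.8 CPM. The lineage antigens Cd3e, Cd4 and Cd8a lay between 0 and 1.80 CPM, but Itgam reached 71.3 and Ly6g 90.8 CPM. Markers of mature cells stood high in some libraries of both groups. The summed level of 17 neutrophil markers was 43315, 2829 and 24040 CPM in the MMP low libraries (1 to 3) and 18877, 3424 and 11318 CPM in the MMP high libraries (1 to 3), and that of 11 erythroblast markers ran from 4342 to 31408 CPM, highest in Old MMP low 1 as well. Those sums overlapped between the groups. So did that of 12 mast cell, basophil and eosinophil markers, at 144, 20.9 and 195 CPM in MMP low and 788, 36.5 and 128 CPM in MMP high. In Old MMP high 1, Prg2 stood at 512 CPM. None of the 9 tested was called (median 1.91, from -0.07 to 2.25 with 1 old library left out). Library names begin with L for replicate 1 and with N for replicates 2 and 3 of both old groups, and the labels do not say what the letters mean. The fit that keeps only the N libraries of the old mice is given beside results as the N value, and the L libraries are 1 against 1 and have no spread of their own.

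**Figure D1:**
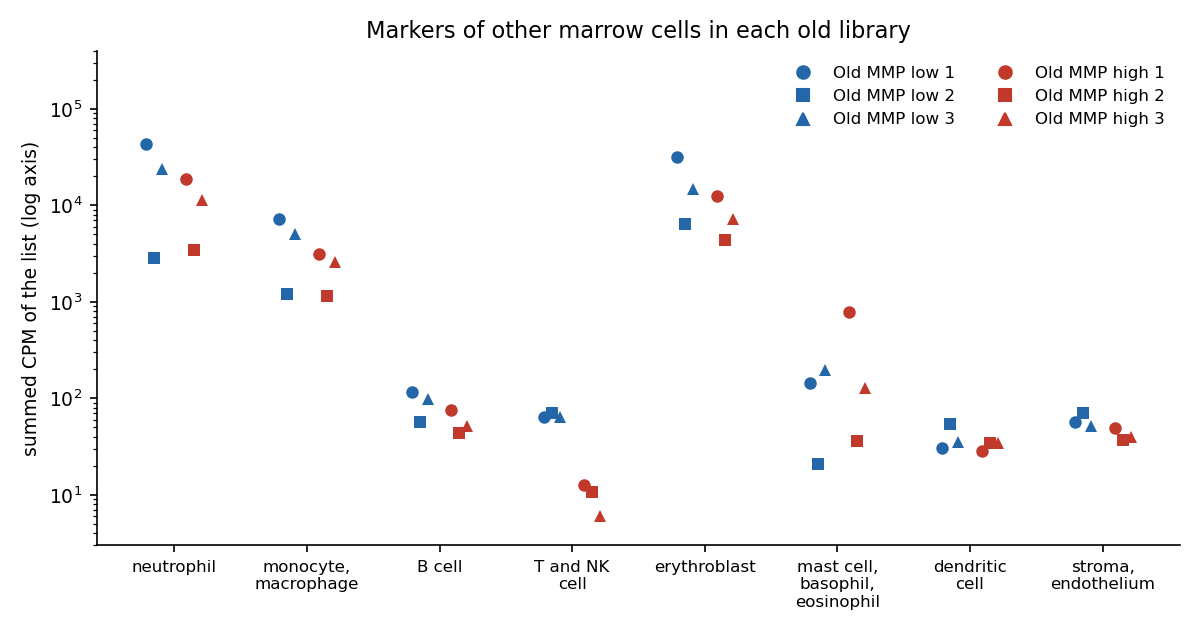
Summed CPM (log axis) of 8 lists of markers of other marrow cells, 1 point per old library, blue for MMP low and red for MMP high, with the shape giving the replicate number. Neutrophil, monocyte and erythroblast sums spread within both groups and overlap. The T and NK cell sums lie between 64.7 and 70.1 CPM in MMP low and between 6.10 and 12.8 CPM in MMP high. The single gene Klrb1c holds 47.7 to 60.0 CPM of these sums in MMP low and 1.92 to 7.90 CPM in MMP high.

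In old HSCs with MMP high, many genes of DNA replication and cell division were called higher. Part of the stem cell surface genes and of the genes linked to HSC ageing, and most genes of the Gbp, Irg and Gimap GTPase families, were called lower. Of 17125 genes tested, 627 were called (3.66%), 381 higher in MMP high (2.22%) and 246 lower (1.44%), by edgeR's quasi-likelihood test at a Benjamini-Hochberg adjusted p of 0.05. The median log2 fold change of all genes tested was -0.08, that of the higher genes 1.32 and that of the lower genes -1.41. A difference of over 2-fold was found for 278 of the higher and 191 of the lower genes, and of over 4-fold for 59 in each direction. The groups of 3 did not overlap for any of the 627, against 26.7% of all genes tested. The count of calls was 315 without Old MMP low 1, 246 without Old MMP low 2, 410 without Old MMP high 1, 254 without Old MMP high 2 and 223 without Old MMP high 3. In the 6 fits that leave out 1 old library each, 130 of the higher and 50 of the lower genes were called every time. A gene named below as higher, lower, risen or fallen belongs to those 180 unless the libraries it depends on are named. The N value of the count was 167 genes, of which 164 were among the 627. Members of the gene lists below were chosen with earlier results of these data known. Their shares, set beside those of all genes tested, are descriptions and not independent support.

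**Figure D2:**
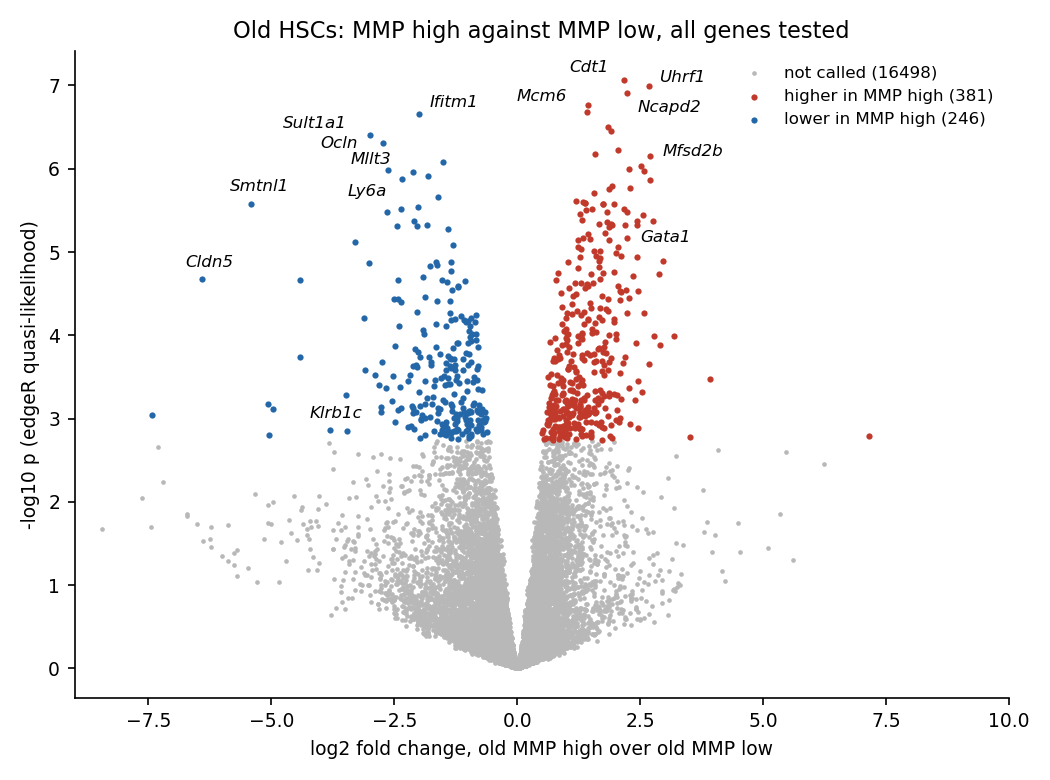
Log2 fold change (x axis) against -log10 p of edgeR's quasi-likelihood test (y axis) for 17125 genes, with called genes in red (381 higher) and blue (246 lower). Cdt1, Uhrf1, Ncapd2 and Mcm6 lie at the top on the right and Ifitm1, Sult1a1 and Ocln at the top on the left, while Cldn5 and Smtnl1 lie far to the left.

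Before a cell can copy its DNA, Cdt1 and Cdc6 load the Mcm2 to Mcm7 helicase onto origins, and the kinase Cdc7 then sets it off. Of 26 licensing and firing genes 15 rose, none fell, and the median log2 fold change was 1.42. All 6 helicase subunits Mcm2 to Mcm7 were among those called. Mcm6 stood at 308, 263 and 385 CPM in MMP low replicates 1 to 3 and at 828, 895 and 858 CPM in MMP high replicates 1 to 3, the order used for all values below. Mcm3 stood at 211, 211 and 284 CPM against 621, 642 and 618 CPM. The lowest MMP high library was more than 2-fold above the highest MMP low library for both subunits, and the 3 MMP high libraries lay close together. The log2 fold changes were 1.43 ± 0.15 (SE, n = 3 against 3; edgeR adjusted p = 0.000623) for Mcm6 and 1.41 ± 0.15 (edgeR adjusted p = 0.000623) for Mcm3, with N values of 1.43 and 1.35. Cdt1 went from 29.8, 22.4 and 24.5 CPM to 98.6, 118 and 127 CPM, a log2 difference of 2.16 ± 0.22 (edgeR adjusted p = 0.000623). Cdc7 went from 22.2, 19.5 and 21.5 CPM to 75.8, 80.5 and 72.6 CPM, and here too the groups were far apart. Mcm5 (1.97 ± 0.26) and Mcm7 (1.51 ± 0.20) rose as well. Not called were 5 of the 6 origin recognition subunits, Orc1 to Orc5. Over 16 alternative settings Orc1 ranged from 1.21 to 1.87 on the log2 scale and was called in 3. Orc5 ranged from -0.26 to -0.08 and was called in none. The number of licensing genes called was between 10 and 14 with 1 old library left out, and 8 in the N fit.

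Upstream sequence is shown for licensing and replication genes that hold an E2F motif, since E2F factors are known to drive such genes at the entry to S phase. The letters searched were TTTCCCGC, TTTGGCGC, TTTCGCGC and TTTGCCGC on both strands, where matches may overlap, in RefSeq promoters of 250 bases before to 50 after a gene's start (GRCm38.p6). A match was found for 2.26% of all 32851 promoters and 4.54% of the 10678 tested genes with an entry, 18.0% of genes called higher (51 of 283) and 1.14% of genes called lower (2 of 175). It was found for 9 of 20 licensing genes with an entry and for 12 of 31 replication fork genes. Among called members with an entry it was found for 6 of 12 licensing and 10 of 25 fork genes. A match is a description of the letters, not a shown binding site. Capitals mark the matches in the bases before the start, 5′ to 3′ on the gene's strand, at chr1:128359706-128359955 (minus strand) for Mcm6, chr8:75109259-75109508 (plus) for Mcm5, chr17:56304063-56304312 (plus) for Uhrf1 and chr1:191575545-191575635 (minus) for Dtl, whose window was cut to 91 bases where an exon of a neighbouring gene begins.
Mcm6: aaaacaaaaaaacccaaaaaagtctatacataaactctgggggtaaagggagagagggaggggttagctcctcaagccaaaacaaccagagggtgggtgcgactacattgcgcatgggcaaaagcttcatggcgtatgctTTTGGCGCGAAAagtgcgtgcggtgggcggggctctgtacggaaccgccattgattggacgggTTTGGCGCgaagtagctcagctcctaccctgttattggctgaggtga
Mcm5: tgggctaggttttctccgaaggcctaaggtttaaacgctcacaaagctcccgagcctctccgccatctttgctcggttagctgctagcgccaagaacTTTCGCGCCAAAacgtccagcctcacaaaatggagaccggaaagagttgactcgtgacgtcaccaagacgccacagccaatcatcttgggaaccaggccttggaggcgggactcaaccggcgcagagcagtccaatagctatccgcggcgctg
Uhrf1: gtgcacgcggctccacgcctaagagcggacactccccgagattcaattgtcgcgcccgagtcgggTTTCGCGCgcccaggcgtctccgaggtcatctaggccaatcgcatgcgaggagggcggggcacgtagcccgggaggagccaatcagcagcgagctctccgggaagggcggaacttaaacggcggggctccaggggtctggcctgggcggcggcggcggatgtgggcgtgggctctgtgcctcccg
Dtl: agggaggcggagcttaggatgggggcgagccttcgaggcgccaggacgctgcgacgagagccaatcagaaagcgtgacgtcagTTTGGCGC
Mcm6 holds 3 matches, the farthest starting 110 bases and the nearest 47 bases before the start. Mcm5 holds 2 overlapping matches at 153 and 149 bases, Uhrf1 1 match at 185 bases and Dtl 1 match 8 bases before the start. The Uhrf1 window lies inside the annotated gene (chr17:56303321-56323486), before a later RefSeq start, and was printed because it holds a match. In Cdt1 and Mcm3 the matches lie 33 bases and 20 and 39 bases after the start and are not printed.

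At the fork, primase and the DNA polymerases copy the strands, the Rfc complex loads the clamp Pcna, Rpa covers single strands, and Fen1 and Lig1 finish the lagging strand. Of 36 such genes 30 rose, none fell and the median was 1.37. Uhrf1, which carries DNA methylation through replication, was at 37.1, 28.1 and 44.3 CPM in the MMP low libraries and at 163, 251 and 286 CPM in the MMP high libraries. Its groups did not overlap, and its log2 fold change of 2.68 ± 0.27 (edgeR adjusted p = 0.000623; N value 2.89) was the largest on the list. The methyltransferase Dnmt1, which works with it, went from 70.5, 83.3 and 115 CPM to 236, 246 and 369 CPM. Dtl, which directs Cdt1 to degradation, rose by 1.58 ± 0.19, the Rpa2 subunit by 1.2 ± 0.16, the flap nuclease Fen1 by 1.74 ± 0.23, the primase Prim1 by 1.39 ± 0.19 and the clamp loader Rfc2 by 1.27 ± 0.17. Fen1 overlaps a predicted gene whose reads may be shared. With 1 old library left out, 20 to 26 of the 36 were called, and 16 in the N fit.

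The supply of nucleotides moved the same way. Of 30 genes 15 rose and none fell, with a median of 0.93. Thymidine kinase Tk1 stood at 49.9, 35.5 and 49.2 CPM in MMP low and 224, 255 and 178 CPM in MMP high HSCs, without overlap (log2 2.29 ± 0.28, edgeR adjusted p = 0.000992). Tyms, which makes thymidylate, rose by 1.87 ± 0.27, Cad, which starts pyrimidine synthesis, by 1.84 ± 0.25, Shmt1, which feeds folate, by 1.47 ± 0.21, the dUTPase Dut by 1.24 ± 0.18 and the ribonucleotide reductase subunit Rrm1 by 1.67 ± 0.26. The count was 8 without Old MMP low 2, 9 without Old MMP high 3 and 6 in the N fit.

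Among 25 regulators of the passage from G1 to S phase, 11 rose and 1 fell (median 1.01). The transcription factor E2f1 went from 11.1, 26.5 and 32.4 CPM to 107, 139 and 129 CPM, so that the lowest MMP high library was over 3-fold above the highest MMP low library (log2 2.42 ± 0.46, edgeR adjusted p = 0.0102). Mybl2 (2.00 ± 0.30) and Foxm1 (2.58 ± 0.45), transcription factors of G2 and mitosis genes, rose, as did Cks1b (1.45 ± 0.21), a partner of cyclin-dependent kinases. E2f5, a factor that acts with repressors, was the member that fell (-1.64 ± 0.32; edgeR adjusted p up to 0.0722 without Old MMP low 2, Old MMP high 2 or Old MMP high 3). The number called higher was 5 without Old MMP low 1, 4 without each of Old MMP low 2, Old MMP high 2 and Old MMP high 3, and 3 in the N fit. Of 16 inhibitors of the cycle tested, 1 was called higher and 2 lower (18.75%, against 3.66% of all genes tested, median -0.36). Btg1, an antiproliferative gene, was called lower (-1.07 ± 0.26), a call lost without any 1 of the 6 old libraries. Gadd45g, a stress-induced growth arrest gene, fell from 92.5, 92.3 and 99.1 CPM to 28.2, 40.3 and 50.3 CPM (log2 -1.26 ± 0.22). Rbl1, a relative of Rb that is itself made in cycling cells, was the one called higher (1.23 ± 0.23; edgeR adjusted p = 0.0576 without Old MMP low 2).

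Of 67 mitosis genes tested 31 rose, none fell and the median was 1.51. In 59 of the 67 all 3 MMP high libraries lay above all 3 MMP low libraries, against 12.9% of all genes tested. In 1 all 3 lay below, against 13.9%. Ncapd2, a condensin subunit that compacts chromosomes, was at 34.8, 40.5 and 38.3 CPM in MMP low and 132, 202 and 199 CPM in MMP high HSCs. Melk, a kinase of dividing progenitors, went from 8.40, 5.71 and 7.88 CPM to 47.4, 55.4 and 46.2 CPM. Nek2, a centrosome kinase, went from 12.0, 9.11 and 9.03 CPM to 44.5, 64.3 and 70.3 CPM. None of these 3 genes overlapped between the groups, and their log2 fold changes were 2.23 ± 0.23, 2.76 ± 0.38 and 2.57 ± 0.35. The kinetochore genes Spc24 (2.31 ± 0.29) and Cenpm (1.97 ± 0.31) and the checkpoint kinase Bub1b (2.06 ± 0.30) rose too. Proliferation markers of this list that were not called include Mki67 (1.25 ± 0.94), Top2a (1.64 ± 0.43) and Birc5 (1.5 ± 0.41), named after their values were seen. Top2a and Birc5 were called by DESeq2 (adjusted p = 0.00274 and 0.00541), with the old libraries alone (edgeR adjusted p = 0.0261 and 0.0267) and in 5 and 4 more of the 16 alternatives. The count called was 14 without Old MMP low 2, 20 without Old MMP high 2, 18 without Old MMP high 3 and 16 in the N fit, and 51 by DESeq2. The letters TTTGAA, the CHR element of many G2 and mitosis genes, were in the promoters of 39 of 56 mitosis genes with an entry, against 14.7% of all tested genes. Among mitosis genes that were called and had an entry, 16 of 25 held them. The letters were in 19.4% of all genes called higher and 17.1% of all genes called lower, so they describe the list and not the MMP difference.

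Repair by homologous recombination, which restores broken or stalled forks from the sister strand, followed. Of 38 genes 11 rose and none fell (median 1.02). The helicase Brip1 was at 8.20, 3.80 and 7.25 CPM in MMP low and 41.9, 33.3 and 40 CPM in MMP high HSCs, with no overlap (log2 2.58 ± 0.32, edgeR adjusted p = 0.000992). The nuclease Exo1 rose by 1.90 ± 0.26 and Fanci, of the crosslink repair pathway, by 1.67 ± 0.30. The count was 5 without Old MMP low 2, 6 without Old MMP high 3 and 5 in the N fit. Of 25 mismatch and excision repair genes 4 were called higher (median 0.38), Msh6 (1.2), Pms2 (0.95), Neil3 (1.97) and Xrcc1 (0.93), and 0 to 2 with 1 old library left out. All 4 calls were lost without Old MMP high 2 and without Old MMP high 3, and each without at least 2 of the other 4 old libraries. Of 22 targets of p53, which arrests damaged cells, none rose and 2 were called lower (median -0.19). That is 9.09%, against 3.66% of all genes tested. The 2 were Sesn1 (-0.96 ± 0.17, with an edgeR adjusted p of 0.0773 without Old MMP high 3) and Plk2. The Plk2 call was lost without Old MMP low 2 or 3 or any 1 MMP high library.

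Of 32 nuclear pore genes tested 9 rose and none fell (median 0.54). Nup62, in the channel of the pore, went from 65.7, 84.2 and 90.5 CPM to 232, 346 and 324 CPM, without overlap (log2 1.91 ± 0.21, edgeR adjusted p = 0.000741). Nup205 (1.73 ± 0.29), Nup85 (1.12 ± 0.20) and Aaas (1.44 ± 0.26), of the scaffold and its periphery, also rose. The count was 4 without any 1 of Old MMP high 3, Old MMP low 1 and Old MMP low 2, and 2 in the N fit. Of 37 chromatin genes 3 were called higher and 1 lower (median 0.27), Dnmt1 and the helicase Hells (1.32 ± 0.25) among those higher. Ezh1, the Polycomb methyltransferase of resting cells, fell from 96, 147 and 98.5 CPM to 31.2, 47.5 and 53 CPM (log2 -1.37 ± 0.24, edgeR adjusted p = 0.00627), while Ezh2, that of dividing cells, stood at 37.0, 28.2 and 33.7 CPM against 72.2, 71.0 and 69.0 CPM (1.10 ± 0.25), a call lost without any 1 of the 6 old libraries (edgeR adjusted p up to 0.142). Of 67 replication-dependent histone genes, whose near-identical copies may share reads, none was called (median 0.27).

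**Figure D3:**
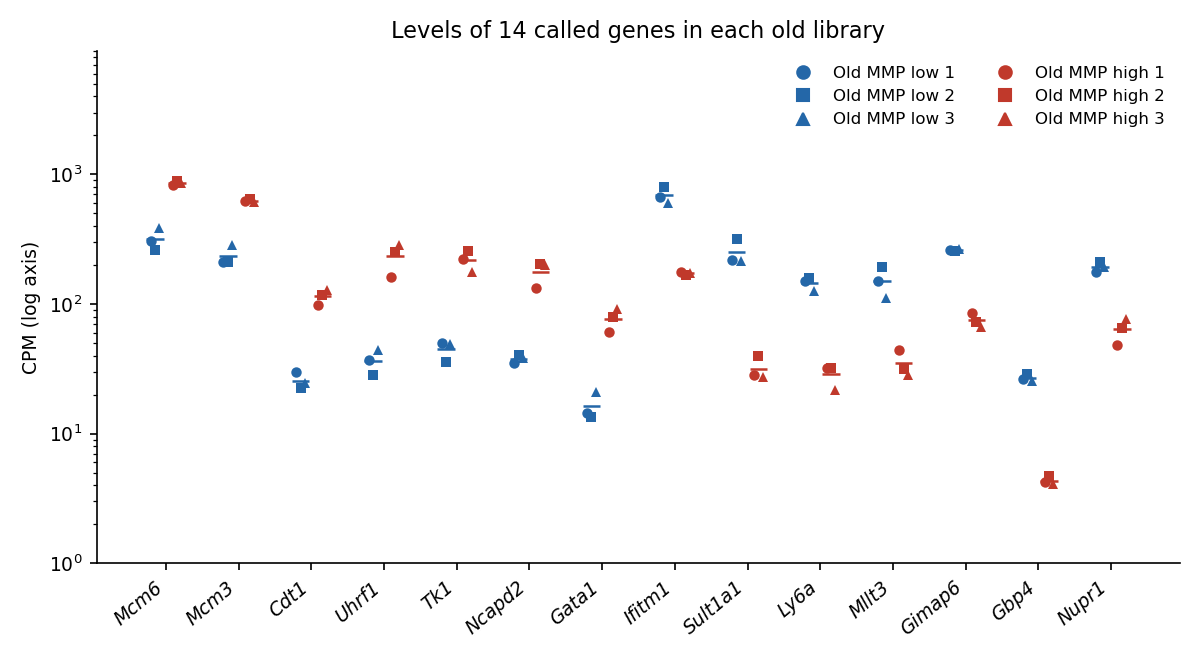
CPM (log axis) of 14 called genes in each old library, blue for MMP low and red for MMP high, with the shape giving the replicate number and a short line the mean of 3. No gene shown overlaps between the groups: Mcm6, Mcm3, Cdt1, Uhrf1, Tk1, Ncapd2 and Gata1 are higher in MMP high, and the other 7 are lower.

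Of 52 genes of the stem cell surface and its contacts 11 fell and 1 rose (median -0.37), and 16 of the 52 lay above 0. The riser was the platelet integrin Itga2b. Ly6a, which encodes the gate marker Sca1, was at 150, 160 and 125 CPM in MMP low and 32.1, 31.9 and 21.8 CPM in MMP high HSCs. Its groups were far apart (log2 -2.34 ± 0.29, edgeR adjusted p = 0.00105; N value -2.41), although both were sorted as Sca1-positive. Sult1a1, a sulfotransferase and marker of quiescent HSCs, went from 218, 320 and 216 CPM to 28.4, 39.5 and 27.1 CPM (log2 -2.99 ± 0.34). The tight junction genes Ocln and Cldn5 were low in MMP high HSCs. Ocln went from 22.9, 29.1 and 26.1 CPM to 4.73, 4.68 and 2.37 CPM, and Cldn5 from 284, 420 and 284 counts to 7, 4 and 0 counts (log2 -6.42 ± 1.03, edgeR adjusted p = 0.0036). Both are also known from endothelium. The summed level of 14 stroma and endothelium markers was 57.6, 70.4 and 52.3 CPM against 49.3, 37.2 and 39.9 CPM, lower without overlap, none of the 8 tested was called, and their part in these values was not tested. Procr, the protein C receptor that marks HSCs and was added after its values were seen, went from 102, 170 and 118 CPM to 21.5, 32.8 and 22 CPM. Pdzk1ip1, a membrane protein gene used to mark HSCs, fell by 1.30 on the log2 scale (SE 0.19). The second gate marker in the files, Slamf1 (CD150), was at 90.2, 101 and 95.5 CPM against 45.9, 54.0 and 45.3 CPM, and its call was lost without Old MMP high 3 (edgeR adjusted p = 0.0716). Kit and Cd48 were not called (log2 -0.12 and -0.47), nor were Cd34 (0.86 ± 0.25, edgeR adjusted p = 0.0838) and Flt3 (1.69 ± 0.50, edgeR adjusted p = 0.0851), genes of more advanced progenitors whose MMP high libraries all lay above the MMP low ones. The number of surface genes called lower was between 8 and 12 with 1 old library left out, and 7 in the N fit.

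Of 36 HSC transcription factors none rose and 4 fell (median -0.58). Mllt3, a chromatin reader that maintains HSCs, was at 150, 193 and 111 CPM in MMP low and 44.6, 31.7 and 28.4 CPM in MMP high HSCs (log2 -2.12 ± 0.26, edgeR adjusted p = 0.000992). Hlf, a factor largely restricted to HSCs, went from 157, 253 and 144 CPM to 74.2, 79.6 and 51.3 CPM (log2 -1.43 ± 0.23). Both were lower in all 3 MMP high libraries than in any MMP low library. Hoxa9 (-0.89) and Mycn (-0.94) were also called, calls that were lost without Old MMP low 2 (Hoxa9), without Old MMP low 1 or 3 (Mycn), or without any 1 MMP high library (both). That left 2 calls without each of Old MMP high 1, 2 and 3, and 2 in the N fit. Mecom was not called (-0.88 ± 0.28, edgeR adjusted p = 0.107).

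Transporters of families that hold dye pumps are listed because MMP may be read from a dye, which the labels do not name. Not each of the 7 is a known dye pump. None of the 7 was called. Abcg2, the best known of them in HSCs, was at 130, 149 and 130 CPM against 98.8, 120 and 96.7 CPM (log2 -0.37 ± 0.17, edgeR adjusted p = 0.298), with all 3 MMP high libraries below. The others had log2 fold changes of -0.59 (Abcb1a), -0.34 (Abcb1b), 0.46 (Abcc1), 0.35 (Abcc4), 0.31 (Abca1) and -0.09 (Abcg1).

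Of 56 genes reported to be higher in aged HSCs 14 were called lower and none higher (median -0.79), and in 36 all 3 MMP high libraries lay below all 3 MMP low libraries, against 13.9% of all genes tested. Nupr1, a stress-induced chromatin regulator, was at 175, 210 and 193 CPM in MMP low and 48.4, 65.7 and 76.7 CPM in MMP high HSCs (log2 -1.60 ± 0.21, edgeR adjusted p = 0.0013). The lysophosphatidic acid receptor Lpar6 went from 64.7, 50.9 and 44.7 CPM to 19.3, 16.1 and 16 CPM, and the ectoenzyme Cd38 from 42.0, 56.9 and 64.8 CPM to 11.4, 16.6 and 15.2 CPM. None of the 3 overlapped between the groups. Sult1a1, Mllt3 and Slamf1 are on this list too. Oxr1, of oxidation resistance, was also called (-0.85 ± 0.15; edgeR adjusted p = 0.0522 without Old MMP high 3). The count called was 8 without Old MMP low 1, 7 without Old MMP low 2, 8 without Old MMP high 1, 9 without Old MMP high 2, 5 without Old MMP high 3, and 4 in the N fit.

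Of 29 genes of the megakaryocyte and platelet lineage 7 rose and none fell (median 0.51). All 3 MMP high libraries lay above all MMP low libraries in 15 of the 29, against 12.9% of all genes tested. They lay below in 2, against 13.9%. Gata1, the transcription factor of megakaryocytes and red cells, went from 14.5, 13.5 and 21 CPM to 61.2, 79.2 and 91.5 CPM, without overlap (log2 2.24 ± 0.32, edgeR adjusted p = 0.00181). Itga2b, the integrin CD41, went from 66.5, 139 and 165 CPM to 338, 589 and 677 CPM. Mfsd2b, a sphingosine-1-phosphate exporter of platelets and red cells, went from 21.8, 13.3 and 25.6 CPM to 100.1, 158 and 137 CPM. The platelet receptor subunits Gp5 (1.69 ± 0.26) and Gp1bb (1.75 ± 0.28) rose. Pf4, a platelet chemokine, was called at 2.09, a call kept in the fit without Old MMP low 1 and lost without any 1 of the other old libraries, and Fermt3, which activates integrins, at 1.00, lost without Old MMP low 2 or Old MMP high 3. Of 31 erythroid genes 3 were called higher (9.68%, against 3.66% of all genes tested) while the median was -0.34. Without the filter on low counts 3 were called higher and 6 lower. They were Gata1, the water channel Aqp1 (1.65 ± 0.32) and the erythropoietin receptor Epor (1.15 ± 0.28), and Gata1 alone was called without each of Old MMP low 1, Old MMP high 2 and Old MMP high 3. Epor was also lost without Old MMP low 2. The erythroblast marker sums given above ranged from 6465 to 31408 CPM in MMP low and from 4342 to 12653 CPM in MMP high libraries, and their part in the erythroid median was not tested. That median was above 0 without Old MMP low 1 (0.12) and in the N fit (0.05). It was also above 0 (0.04) with the level of neutrophil, monocyte and macrophage markers as a covariate.

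Of 24 myeloid progenitor genes none rose and 2 were called lower (8.33%, against 3.66% of all genes tested, median -1.07). When no filter on low counts was used, 12 were called lower. With 1 old library left out 0 or 1 was called, and the median ran from -1.36 without Old MMP high 1 to -0.61 without Old MMP low 1. Cebpb, a factor of emergency granulopoiesis, was at 499, 871 and 642 CPM against 195, 303 and 299 CPM (log2 -1.34 ± 0.35, edgeR adjusted p = 0.0474), and Csf3r, the granulocyte growth factor receptor, was at -0.93 ± 0.24. The Cebpb call was lost without any 1 of the 6 old libraries, and the Csf3r call without any 1 but Old MMP low 2. None of the 16 neutrophil markers tested was called (median -1.0), while 13 were called lower without the filter on low counts. Their median was -0.24 without Old MMP low 1, -1.53 without Old MMP low 2, -1.51 without Old MMP high 1 and -0.54 without Old MMP high 2, and Ngp, a granule gene, was at 9966, 747 and 6058 CPM against 4551, 1045 and 2865 CPM, overlapping between the groups. With the level of neutrophil, monocyte and macrophage markers as a covariate, 1 myeloid progenitor gene was called higher and 4 lower. That fit was added after the data were seen. Of 21 lymphoid genes 1 was called lower (4.76%, median -0.44), the receptor Gpr171 (-1.09 ± 0.26). The Gpr171 call was lost without replicate 1 or 2 of MMP low or 2 or 3 of MMP high. The list median ran from -0.83 to 0.03 with 1 old library left out.

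**Figure D4:**
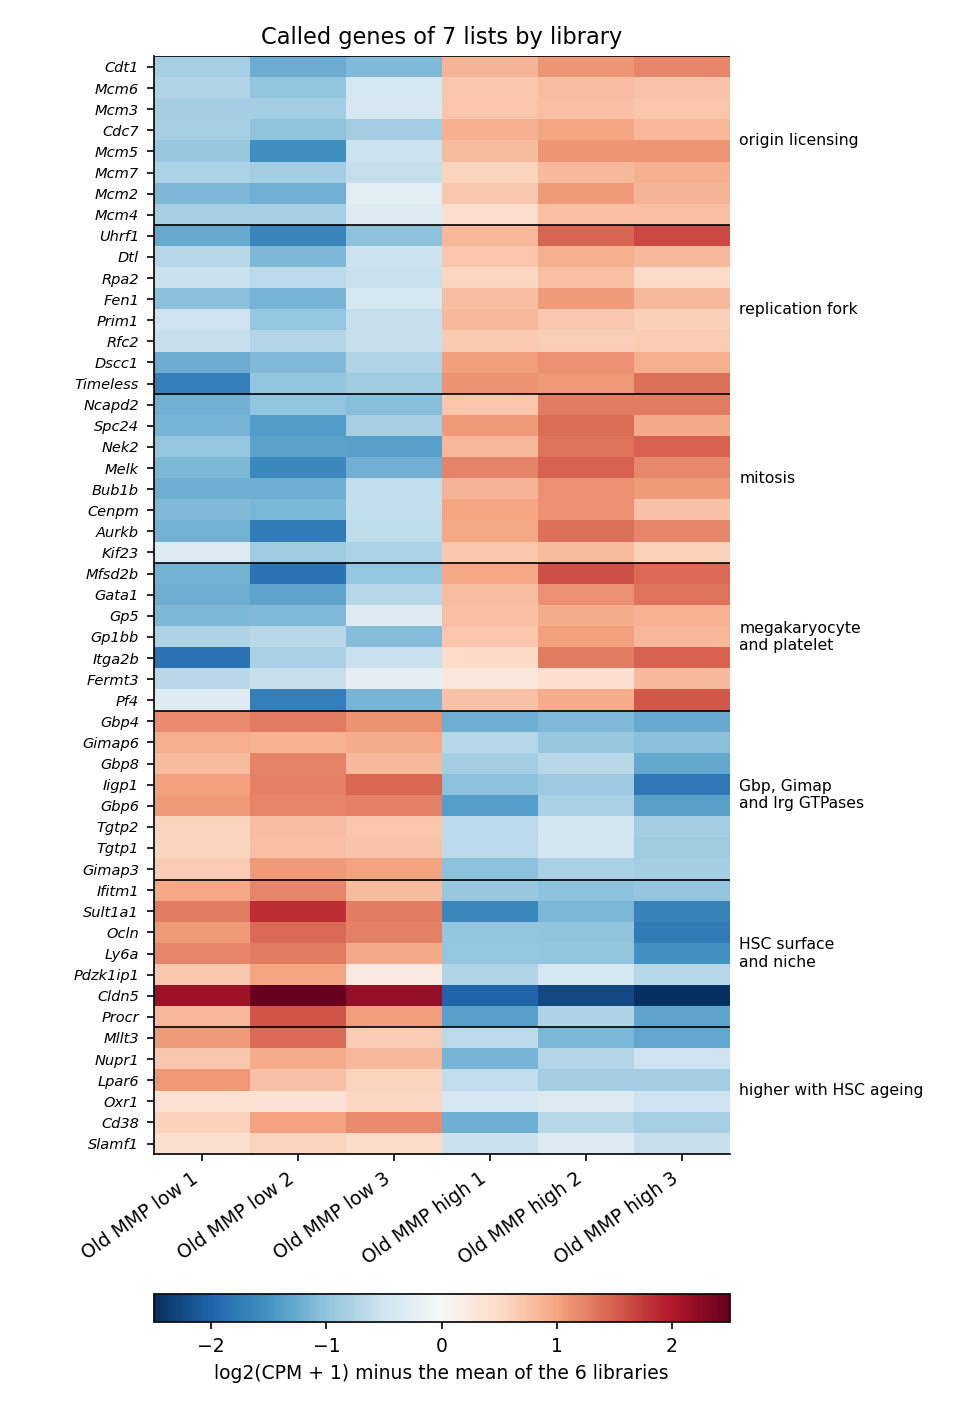
Log2(CPM + 1) minus the mean of the 6 old libraries for the called genes of smallest p of 7 lists, 1 row per gene and 1 column per library, red above and blue below the mean. Licensing, fork, mitosis and platelet genes are above the mean in the 3 MMP high libraries, and GTPase, surface and ageing genes in the 3 MMP low libraries.

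Of 24 GTPases of the Gbp, Irg and Gimap families 16 fell, none rose and the median was -1.41. Gbp and Irg GTPases are induced by interferon and attack the vacuoles of intracellular microbes, while Gimap GTPases act in lymphocyte survival. Gbp4 was at 26.5, 28.8 and 25.5 CPM in MMP low and 4.24, 4.68 and 4.07 CPM in MMP high HSCs (log2 -2.63 ± 0.32, edgeR adjusted p = 0.000992; N value -2.63). Gimap6 was at 262, 257 and 266 CPM against 84.8, 72.3 and 66.9 CPM (log2 -1.81 ± 0.22). Iigp1 went from 28.3, 33.5 and 37.8 CPM to 6.11, 6.65 and 3.16 CPM. Libraries of 1 group lay close together for these genes and no groups overlapped. Gbp6 (-2.45 ± 0.34), Gbp8 (-2.01 ± 0.27) and Tgtp2 (-1.34 ± 0.21) fell too. Near copies such as Gbp4 with Gbp8 and Tgtp1 with Tgtp2 may share reads, so they are not separate evidence. The count was 10 without Old MMP low 1, 8 without Old MMP low 2, 8 without Old MMP high 1, 10 without Old MMP high 2, 8 without Old MMP high 3, and 7 in the N fit.

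In the wider interferon response, of 41 genes 6 fell and none rose (median -0.66), and 38 of 41 had a log2 fold change below 0. Ifitm1, a membrane protein that blocks virus entry and marks HSCs, was at 673, 804 and 599 CPM in MMP low and 178, 168 and 175 CPM in MMP high HSCs (log2 -2.0 ± 0.21, edgeR adjusted p = 0.000623). Its neighbour Ifitm3 was at 893, 924 and 697 CPM against 442, 391 and 470 CPM (log2 -0.95 ± 0.17; edgeR adjusted p = 0.0763 without Old MMP high 2). Ifi44, Oasl2, Rtp4 and Rsad2, induced antiviral genes, had values of -2.03, -1.10, -1.61 and -1.2. The Rsad2 call was lost without any 1 of the 6 old libraries, and that of Rtp4 without any 1 but Old MMP low 3. Oasl2 was lost without replicate 2 or 3 of either group, and Ifi44 without Old MMP high 1 or 3. The count was 3 without Old MMP high 1, 2 without each of Old MMP high 2 and Old MMP high 3, 2 in the N fit and 13 by DESeq2. A core of the interferon-stimulated response element was found on either strand in 13 of 29 interferon response promoters and 9 of 17 GTPase promoters. It was found for 3.86% of tested genes, 11.4% of genes called lower and 4.95% of genes called higher. Among called members with an entry 2 of 5 interferon response and 7 of 11 GTPase genes held it. The upstream bases of Rsad2, an antiviral enzyme, are shown as those of a called gene with a match before its start, at chr12:26456453-26456702 (minus strand), where capitals mark the match on the opposite strand 120 bases before the start.
Rsad2: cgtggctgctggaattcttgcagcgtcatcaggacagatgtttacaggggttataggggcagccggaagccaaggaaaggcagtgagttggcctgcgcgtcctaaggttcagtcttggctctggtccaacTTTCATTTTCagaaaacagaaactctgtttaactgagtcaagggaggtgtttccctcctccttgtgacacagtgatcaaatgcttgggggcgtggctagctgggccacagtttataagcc

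Of 27 antigen presentation genes 2 fell and none rose (7.41%, against 3.66% of all genes tested, median -0.20). Cd74, the invariant chain that guides class II molecules, was at 746, 350 and 531 CPM in MMP low and 127, 57.9 and 118 CPM in MMP high HSCs, without overlap (log2 -2.43 ± 0.39, edgeR adjusted p = 0.0036). The class II gene H2-Eb1 was called at -1.78 ± 0.43, and the call was kept without Old MMP low 2 and lost without any 1 of the other 5. Class II genes are carried by B cells, dendritic cells and macrophages. The 15 monocyte and macrophage markers tested were all below 0 (median -1.76) and 1 was called lower, Ms4a6c, at 14.1, 15 and 13 CPM against 5.13, 3.43 and 1.92 CPM, a call lost without Old MMP low 1, Old MMP low 2, Old MMP high 2 or Old MMP high 3. Their summed level was 7245, 1203 and 5061 CPM against 3132, 1157 and 2607 CPM, overlapping between the groups. The summed level of 12 T and NK cell markers was 64.7, 70.1 and 64.8 CPM in MMP low and 12.8, 10.8 and 6.10 CPM in MMP high libraries. Among these, Klrb1c, a receptor of natural killer cells, was at 47.7, 60.0 and 52.7 CPM against 4.73, 7.90 and 1.92 CPM, and Cd247, a signalling chain of T and NK cells, at 9.20, 9.81 and 7.46 CPM against 5.42, 2.91 and 2.03 CPM, while Cd3e was at 0 in 4 of the 6 libraries and Cd8a in 5. Klrb1c held most of the sum in the MMP low libraries, and its call was lost without any 1 of the 6 libraries. Of these T and NK cell markers, Ncr1 and Gzma were at 0 counts in all MMP low libraries. They were at 6 and 15 counts in Old MMP high 1 alone. Sums of 12 B cell markers were 57.1 to 117 CPM against 43.7 to 76.4 CPM, and of 8 dendritic cell markers 30.6 to 54.7 against 28.2 to 34.6 CPM, both overlapping. The part of such cells in the class II values was not tested. In bulk samples fewer cells of a type and less RNA per cell cannot be told apart.

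**Figure D5:**
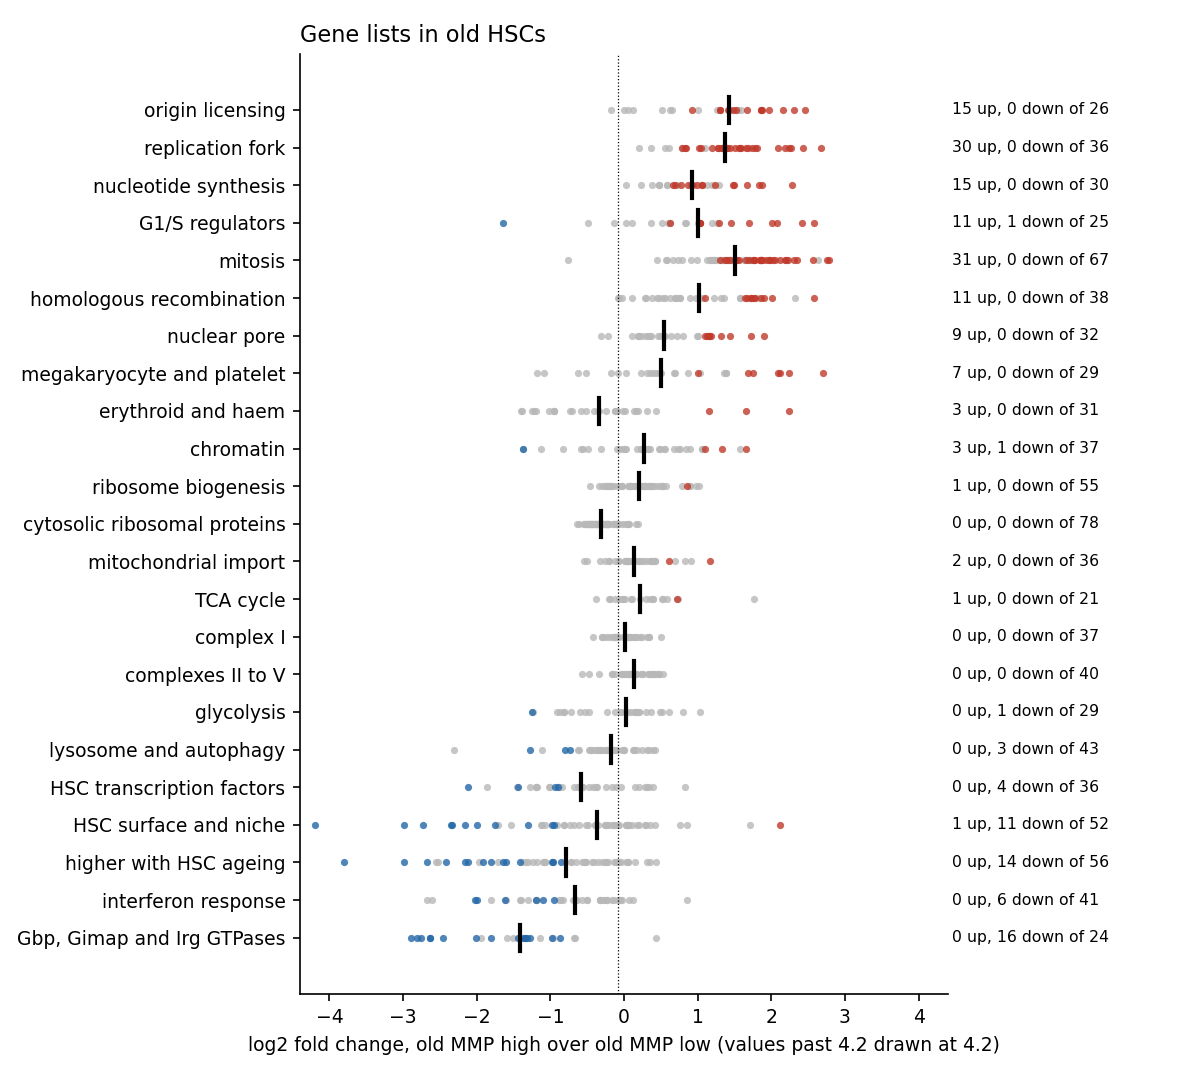
Log2 fold change of every tested member of 23 gene lists, 1 point per gene, red where called higher, blue where called lower and grey where not called, with a black bar at the list median, a dotted line at the median of all genes, and the counts at the right. Replication, nucleotide and mitosis lists lie to the right, with medians from 0.93 to 1.51, the respiratory complexes lie near 0, and the GTPase list lies farthest to the left at -1.41.

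Across the lists of nuclear genes for mitochondrial proteins, 0% to 9.52% of members were called, against 3.66% of all genes tested. Log2 fold changes above 0 were found for 20 of 37 complex I genes and 30 of 40 of complexes II to V. They were also found for 27 of 36 import, 16 of 21 carrier, 22 of 32 mitochondrial genome and 14 of 21 TCA cycle genes. The count was 8 of 19 for fission, fusion and mitophagy, against 44.9% of all genes tested. None of 37 complex I genes (median 0.02) and none of 40 genes of complexes II to V (median 0.13) was called. Atp5b, the catalytic subunit of ATP synthase, was at 1145, 985 and 1129 CPM against 1423, 1683 and 1420 CPM (log2 0.47 ± 0.15, edgeR adjusted p = 0.105), with all 3 MMP high libraries above. All 37 mitochondrially encoded genes were listed at 0 throughout and could not be tested. Timm50, which receives proteins at the inner membrane channel, was at 92.1, 89.7 and 93.9 CPM against 180, 217 and 223 CPM, without overlap (log2 1.17 ± 0.19, edgeR adjusted p = 0.00369). Of 36 import and quality control genes it and Phb2, a scaffold of the inner membrane (0.61), were called, the latter lost without any 1 old library but Old MMP low 3. Of 21 carriers and potential regulators 2 were called higher (median 0.24), of 32 genes expressing the mitochondrial genome 1, Mrpl12 (0.68, lost without replicate 1 or 2 of MMP low or 2 or 3 of MMP high; median 0.17), of 21 of the TCA cycle 1, Idh2 (0.72 ± 0.15), and of 19 of fission, fusion and mitophagy none (median -0.15). Idh2 was lost without Old MMP low 2, Old MMP high 2 or Old MMP high 3. The carriers called were Ppif, of the permeability pore (0.82 ± 0.16; lost without Old MMP high 2 or either of Old MMP low 1 and 2), and Slc25a5, which exchanges ADP for ATP (0.59 ± 0.15; kept only without Old MMP low 3).

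Of all genes tested 3.66% were called. The shares called were 3.45% each for glycolysis and lipid synthesis, 1.82% for ribosome biogenesis and 9.52% for tRNA synthetases. For antioxidant genes the share was 7.41%, and for lysosome and autophagy genes 6.98%. Of 29 glycolysis genes 1 was called, Hk2, which traps glucose (from 34.3, 35.4 and 39.1 to 15.8, 13.2 and 16.8 CPM). The Hk2 call was lost without any 1 of the 6 old libraries. Of 20 fatty acid oxidation genes none was called (median 0.01), and of 29 of lipid synthesis 1, the fatty acid synthase Fasn (1.37 ± 0.31; median 0.25), whose call was kept without Old MMP low 3 or Old MMP high 1 and lost without any 1 of the other 4. The 55 ribosome biogenesis genes had 1 call, Noc4l (0.86; median 0.21), that was lost without any 1 of the old libraries, and the 31 proteasome genes none (median 0.19, with 28 of 31 above 0). Of 21 tRNA synthetases 2 were called higher (median 0.39, with 19 of 21 above 0), Aars (1.04 ± 0.25) and Yars (0.76 ± 0.18). In 11 of the 21 all MMP high libraries lay above all MMP low libraries, against 12.9% of all genes tested. The Yars call was lost without any 1 of the 6 old libraries, and that of Aars was kept without Old MMP low 3 or Old MMP high 1 and lost without any 1 of the other 4. None of 78 cytosolic ribosomal protein genes was called, with a median of -0.31 that ran from -0.50 to -0.04 with 1 old library left out, and 1 was called lower without Old MMP low 3. Of 27 antioxidant genes 1 fell and 1, the peroxiredoxin Prdx4 (0.76 ± 0.19), was called higher, kept only without Old MMP high 1 (median -0.16). The glutathione transferase Gstm1 was at 606, 593 and 569 CPM in MMP low and 175, 163 and 156 CPM in MMP high HSCs, with groups far apart (log2 -1.84 ± 0.26, edgeR adjusted p = 0.00145). Of 43 lysosome and autophagy genes 3 were called lower (median -0.18), the protease Ctsl (-1.28 ± 0.29), Lamp2, a lysosomal membrane protein (-0.80 ± 0.17), and Map1lc3b, which marks autophagosomes (-0.73 ± 0.18). The calls of Lamp2 and Map1lc3b were lost without any 1 of the 6 old libraries, and that of Ctsl without Old MMP low 2 or any 1 MMP high library.

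Of 28 TGF-beta and BMP genes 1 rose and 1 was called lower (7.14%, against 3.66% of all genes tested). Tgfb1, a ligand that keeps HSCs quiescent, went from 53, 66.5 and 71.9 CPM to 102, 147 and 130 CPM (log2 0.98 ± 0.19), and Id2, a BMP target, was at -1.69 ± 0.37, lost without Old MMP low 1, Old MMP high 2 or Old MMP high 3. Of 35 cytokine receptor and JAK-STAT genes, Epor was called higher and Csf3r and Stat4 (-0.80 ± 0.19) lower (8.57%, median -0.44), and the Stat4 call was kept only without Old MMP high 1. Of 35 immediate early and NF-kB genes 1 was called lower (2.86%, median -0.17), Ptgs2, which makes prostaglandins. The Ptgs2 call was lost without any 1 of the 6 old libraries. Among 28 genes of protein folding stress (3.57% called) Trib3 was called lower (-2.35 ± 0.55), a call lost without any 1 of the 6. Among 25 of apoptosis (4% called) Bok was called higher (1.72 ± 0.43), kept only without Old MMP high 1.

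Among the genes of smallest p or largest fold outside these lists, Fgf3, a fibroblast growth factor, went from 5.0, 4.60 and 9.56 CPM to 31.1, 53.5 and 41.1 CPM (log2 2.71 ± 0.34), and Tcf19, a factor of proliferating cells, rose by 1.92 ± 0.24. Tuba8, a tubulin whose reads may be shared with relatives, rose by 2.06 ± 0.24. Iqgap3, a scaffold of dividing cells, was at 5.80, 11.3 and 7.88 CPM against 46.4, 63.5 and 75.3 CPM. On the other side Smtnl1, a smoothelin-like gene, went from 161, 89 and 161 counts to 4, 2 and 3 counts (log2 -5.42 ± 0.72). Efna1, a ligand of Eph receptors, was at 58.4, 57.9 and 41.5 CPM against 1.97, 11.6 and 4.63 CPM (log2 -3.11 ± 0.55). None of these genes overlapped between the groups. Tcp11l2 (-2.09 ± 0.29), Tenc1, a tensin (-2.36 ± 0.32), and Ptplad2, of fatty acid elongation (-1.52 ± 0.18), fell too.

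Whether the MMP difference of old HSCs itself differed from that of young HSCs was tested as an interaction in the same fit. No gene was called (0% of 17125) by edgeR's quasi-likelihood test, while 693 had an unadjusted p under 0.05 (4.05%), and DESeq2 called 2 genes with 863 at an unadjusted p under 0.05. The median log2 fold changes of replication fork genes were 1.37 in old and 0.75 in young HSCs, of licensing genes 1.42 and 0.69, of mitosis genes 1.51 and 1.00, and of the GTPases -1.41 and -1.01. Unadjusted interaction p-values under 0.05 were found for 13 of 36 fork genes, 11 of 26 licensing genes, 11 of 56 ageing genes, 9 of 67 mitosis genes and 1 of 24 GTPases. The gene of smallest p was Pomt1, a mannosyltransferase, at 22.3, 18.7 and 25.2 CPM in old MMP low and 49.8, 75.5 and 62.9 CPM in old MMP high HSCs. Its log2 fold change was 1.51 ± 0.24 in old and -0.23 in young HSCs, and its interaction had an edgeR adjusted p of 1.00. Cytosolic ribosomal protein genes had a median of 0.30 in young HSCs against -0.31 in old, with 12 of 78 at an unadjusted interaction p under 0.05.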

How the data were processed

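RNA of sorted HSCs was sequenced in 13 libraries, and the authors deposited a table of whole-number read counts per gene symbol (43280 symbols) for each library. Per the submitters' processing notes, Trim Galore and STAR 2.7 were used with GRCm38. No label or header names the counting tool, annotation or strand setting, so reads of overlapping, antisense or near-identical genes may be shared. Between 51.2% and 53.8% of the counts from 1 to 100 in a library were even numbers.

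Groups came from the titles. Counts were fitted with edgeR 4.0.16 (R 4.3.3, limma 3.58.1) by the quasi-likelihood test with TMM scaling and a mean for each of the 4 groups, which share one estimate of spread (9 residual degrees of freedom). Genes passed filterByExpr with a minimum count of 10 and a minimum total of 15. A gene was called at a Benjamini-Hochberg adjusted p under 0.05. CPM are counts per 1000000 counts of the scaled library. Fold changes are high minus low on the log2 scale. The scripts were tested on simulated counts.

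Gene lists were written by hand, and the members and lists were chosen with earlier results of these data known. Named genes are the 15 of smallest p and 10 of largest fold in each direction (the latter with a mean of 20 CPM or more), up to 6 called members of each list, or 2 with the most abundant where fewer were called, the gate, lineage and dye efflux genes, and those of the interaction. Genes said to be added after their values were seen lie outside that rule, as do Mecom, Fgd5, Tgtp1, Pf4 and genes named only to identify a small count.

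Old libraries that share a replicate number deviated together from their group means (correlations 0.291, 0.271 and 0.136, against -0.268 to -0.00690 for different numbers). Deviations from a group mean cancel out within the group, so these correlations are not independent. For the replicate block the numbers were taken to pair the libraries, as a reading of the data and not of the labels. The main fit holds no term for pairs, so its p-values and SE take no account of them. Alternatives were DESeq2 1.42.0, other scalings and filters, the old libraries alone, a replicate block, the library series as a term or its N libraries only, and each library left out. A covariate for neutrophil, monocyte and macrophage markers, and for no other mature cells, was added after the data were seen. Promoters came from RefSeq (GRCm38.p6).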

Additional observations from a re-analysis of the deposited data

How the results depend on the processing

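No gene called in the old comparison changed sign under any of the settings run. DESeq2 called 1330 genes (756 higher and 574 lower, 622 shared with edgeR) and 2 for the interaction. Without a filter on low counts 1190 were called (673 of them higher, the rest lower, 549 shared) and 58 for the interaction. With the N libraries only, which has 2 against 2, 167 were called (119 higher and 48 lower). With 1 old library left out the calls ranged from 223 to 538, those higher from 148 to 345 and those lower from 60 to 193. The marker covariate gave 374 lower. The cause of these shifts was not tested, beyond the fewer samples or more genes that a setting holds by construction. The replicate block, which pairs the old libraries by number, called 589 genes (369 higher and 220 lower), of which 518 were shared. Under that pairing the calls of Bok, Btg1, Cebpb, Hk2, Klrb1c, Map1lc3b, Mycn, Noc4l, Phb2, Rsad2 and Yars were lost (edgeR adjusted p from 0.0502 to 0.0718) and Top2a was called (0.0416), and no other named gene changed its call. Scaling by total counts moved the share called higher from 60.8% to 67.6%.

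Some uncalled genes changed sign. With 1 library left out, Abca1 ranged from -0.045 to 0.58, Abcb1b from -0.50 to 0.010, Abcg1 from -0.28 to 0.17, Cd48 from -1.19 to 0.15 and Kit from -0.20 to 0.041 on the log2 scale. With the N libraries only Abcg1 was at 0.037, and with the marker covariate Itgam was at 0.24, Ly6g at 0.031 and Ngp at 0.13.

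With 3 libraries a group and a common biological coefficient of variation of 0.413, small differences of low genes were not detectable at this depth, and a gene not called is not shown to be equal.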

Other observations

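Some genes outside the lists are given as values, chosen after their values were seen. Tubb5, a beta tubulin that may share reads with near-identical tubulins, was at 399, 371 and 322 CPM in Old MMP low 1 to 3 and at 911, 1063 and 772 CPM in Old MMP high 1 to 3 (log2 1.33 ± 0.18). Stmn1, which takes microtubules apart, was at 537, 535 and 561 CPM against 1313, 1445 and 1181 CPM (1.27 ± 0.19). Ran, the GTPase of nuclear transport and spindle assembly, was at 523, 502 and 545 CPM against 820, 979 and 920 CPM (0.79 ± 0.13), and its activating protein Rangap1 was higher by 1.47 ± 0.25. Psat1, of serine synthesis, was at 67.5, 47.9 and 69.1 CPM against 136, 181 and 146 CPM (1.33 ± 0.18). None of these genes overlapped between the groups.

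On the lower side, Ctsc, a lysosomal protease, was at 175, 211 and 244 CPM in MMP low and 75.5, 113 and 84.0 CPM in MMP high HSCs (log2 -1.21 ± 0.20), and Asah1, the acid ceramidase, at 109, 94.2 and 119 CPM against 46.6, 50.7 and 48.7 CPM (-1.14 ± 0.20). Sat1, which breaks down polyamines, was lower by -1.32 ± 0.22 and the glutathione transferase Gstm3 by -1.88 ± 0.32. Bmp4, a ligand of the TGF-beta family, was at 9.0, 27.4 and 17.7 CPM against 0.789, 1.25 and 0.452 CPM (-4.42 ± 0.71), and Runx3, a transcription factor, was higher at 60.4, 54.9 and 42.2 CPM in MMP high against 20.2, 14.4 and 14.2 CPM (1.69 ± 0.29). These calls were kept in each fit that leaves out 1 old library. Txnip, which restrains glucose uptake, was at 727, 652 and 411 CPM against 250, 261 and 145 CPM (-1.45), with an edgeR adjusted p of 0.0519 without Old MMP high 3.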
